A study of Homo sapiens with 60 samples.

Results

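The root of Angelica gigas (Angelicae Gigantis Radix in the labels) and peony root (Paeoniae Radix) were each given as a water extract to SW1783 cells, a line from a human astrocytoma, at 20, 100 and 500 µg/mL for 24 h. The 6 libraries were found through their sample titles, 1 library for each root and dose, and are 6 of the 60 libraries of the series. All 6 carry the code of 1 set and the same replicate number, 3. The vehicle group had 3 libraries of cells given 0.1% DMSO by their labels, under another set code; the series description names 2%. The other 51 libraries were of cells given other extracts, among them Samul-tang, Rehmannia, Cnidium, Cinnamon, Astragalus and Sagunja, and they supplied the spread between replicates that the roots lack. No label ties any 2 libraries to separate cultures, so the p-values below measure the spread between these libraries, which may be technical.

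Both roots are long used in East Asian medicine. Angelica gigas is known for the coumarin decursin, and peony root for the monoterpene glycoside paeoniflorin and for tannins. Several sensors of a cell can be read from its mRNA. The MondoA factor raises TXNIP and ARRDC4 when sugar phosphates build up. The unfolded protein response sets the chaperones of the endoplasmic reticulum (ER). The aryl hydrocarbon receptor (AHR) binds planar plant compounds and raises CYP1 enzymes. Hypoxia-inducible factors act when oxygen is short, and the zinc-sensing factor MTF1 raises metallothioneins.

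The promoters of 3 genes with a called shared slope of both roots are shown because the known binding patterns of these sensors stand in them, in capitals. TXNIP (chr1:145996626-145996692, minus strand) holds the carbohydrate response element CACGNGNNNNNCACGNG. HSPA5 (chr9:125241366-125241434, minus strand) holds the ER stress element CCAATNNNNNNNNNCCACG. MT1X (chr16:56682295-56682448, plus strand) holds 4 matches to the metal response element cores TGCGCNC and TGCACNC, one of them on the opposite strand. The sequences are RefSeq's, on GRCh38.p14, 5′ to 3′ along the gene, and end before the transcription start.
TXNIP: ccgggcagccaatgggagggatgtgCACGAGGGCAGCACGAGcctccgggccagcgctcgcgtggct
HSPA5: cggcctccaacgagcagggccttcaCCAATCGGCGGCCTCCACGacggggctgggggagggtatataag
MT1X: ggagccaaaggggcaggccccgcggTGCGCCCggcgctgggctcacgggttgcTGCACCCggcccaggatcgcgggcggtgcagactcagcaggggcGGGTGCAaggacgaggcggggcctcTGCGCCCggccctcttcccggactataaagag
Both strands of the 250 bases before the start of 35116 promoters were searched. The carbohydrate response element stood in 16 of them (0.0456%), the ER stress element in 26 (0.074%), and a metal response core, a short pattern, in 8719 (24.8%). A match describes the letters and shows no binding.

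The root libraries held 24671865 to 26798038 counts (20604748 to 29609771 over the series), and 23046 to 23907 genes with a count. Of the markers of astrocytes, 8 of 13 passed the filter on low counts, with VIM, SOX9, GJA1 and SLC1A3 among them. GFAP, S100B, AQP4, ALDH1L1 and FABP7 did not pass. The summed level of the astrocyte list was 5116 to 5847 CPM (counts scaled to library size) in the root libraries and 6261 to 6510 CPM in vehicle libraries. No member of the lists of astrocyte, neuron, oligodendrocyte, immune, endothelial, epithelial or fibroblast markers was called along the dose of either root. A single pair of libraries differs in many genes without a difference in treatment. Replicates of 1 group, mostly of cells given an extract, were at least 2-fold apart on log2(CPM + 1) in 12 to 84 genes, median 30, over 49 pairs. The pairs of vehicle libraries were so in 12, 24 and 27 genes. The high and the low dose of Angelica were at least 2-fold apart in 28 genes (0.154% of 18181 tested) and those of Paeonia in 50 (0.275%). Both lay inside the range of the 49 pairs and above the vehicle pairs. One library of the series, the first of Sagunja at low dose, stands far from its replicates (up to 2791 genes in such a pair), and it widens the spread used in every test below.

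Change along dose was therefore fitted as a slope, the log2 change per 5-fold dose step, with the spread taken from the 19 groups of at least 2 libraries and from the scatter of each root about its line, and tested with the edgeR quasi-likelihood method. A gene was called at a Benjamini-Hochberg adjusted p under 0.05 over 18181 genes. A slope of 0.50 is a 2-fold change over the 2 steps between 20 and 500 µg/mL.

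Along the dose of Angelica root, 3 genes rose (0.0165% of those tested) and 2 fell (0.011%), 5 in all (0.0275%). An unadjusted p under 0.05 was reached by 601 genes. Without the Sagunja library that stands apart 17 were called (0.0936%). The genes that rose were TXNIP, which binds thioredoxin and limits glucose uptake, its relative ARRDC4, an arrestin-like protein that also limits glucose uptake, and NLRC5, which activates MHC class I genes. HSPA5, the main chaperone of the ER, and HERPUD1, which helps ER proteins reach degradation, fell.

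TXNIP (ENSG00000265972, chr1:145992435-145996600) had 10.4, 10.2 and 51.6 CPM at 20, 100 and 500 µg/mL of Angelica, against 9.82, 10.2 and 8.65 CPM in the vehicle libraries. Only the library at 500 µg/mL stood apart from vehicle, and the low and medium doses lay near it. The slope was 1.20 ± 0.14 (SE; adjusted p = 1.7e-06), and it was -0.031 without the high library. Paeonia gave 9.44, 9.17 and 31.3 CPM of TXNIP at the same doses, again with the change in the last step (slope 0.90 ± 0.14, adjusted p = 0.00021). ARRDC4 had 5.79, 6.01 and 11.9 CPM along Angelica, against 6.34 ± 0.85 CPM (SD, n = 3) in vehicle (slope 0.54 ± 0.10, adjusted p = 0.011). It had 5.41, 6.06 and 9.52 CPM along Paeonia (slope 0.41 ± 0.10, adjusted p = 0.058). The other 2 members of the list of MondoA targets, ARRDC2 and ARRDC3, had slopes between -0.07 and 0.07 in both roots and were not called.

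HSPA5 (ENSG00000044574, chr9:125234853-125241330) had 3347, 3042 and 2279 CPM at rising doses of Angelica and 3593, 3219 and 2654 CPM at rising doses of Paeonia, against 3391, 3473 and 3595 CPM in vehicle. Each dose lay below the one under it in both roots, and the medium and high libraries of both lay below all 3 vehicle libraries. The slope was -0.28 ± 0.05 for Angelica (adjusted p = 0.0055) and -0.22 ± 0.05 for Paeonia (adjusted p = 0.013). HERPUD1 fell along Angelica (101, 89.8 and 69.9 CPM, against 123 ± 6.52 CPM in vehicle; slope -0.26 ± 0.05, adjusted p = 0.011). NLRC5 had 18.9, 24.0 and 27.8 CPM along Angelica, against 23.3 ± 0.752 CPM in vehicle (slope 0.28 ± 0.05, adjusted p = 0.011). Its low Angelica dose lay below vehicle and its high Angelica dose above. Along Paeonia NLRC5 had 24.4, 27.7 and 31.0 CPM, above Angelica at each dose (slope 0.17 ± 0.05, adjusted p = 0.22). The difference of slopes was not called (0.11 ± 0.07). Against vehicle, the high dose was called for Paeonia (log2 change 0.41 ± 0.08, adjusted p = 0.0024) but not for Angelica (0.26 ± 0.08, adjusted p = 0.31). The rise of NLRC5 is thus not shown to be particular to Angelica.

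The Angelica slopes moved with transcript length. Over 11170 genes with at least 5 CPM, Spearman's rho between the Angelica slope and the length of the longest annotated transcript was 0.502, whereas it was 0.0176 for the Paeonia slope. The ratio of each library to the vehicle mean gave rho with length of -0.428 for Angelica at 20 µg/mL and between 0.0289 and 0.287 for the other 5 root libraries; a vehicle library set against the mean of the other 2 gave -0.200 to 0.189. Genes are not independent replicates, and no p is given. The low Angelica library also enters the shared slope, the difference of slopes and the comparison at matched doses below. The part of the length trend in those calls or in the Angelica calls was not tested. Without the low Angelica library 2 genes were called along Angelica, both among the 5, and without the high library 1, not among them. With only the 6 root libraries in the fit 4 genes were called, none of them among the 5.

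**Figure D1:**
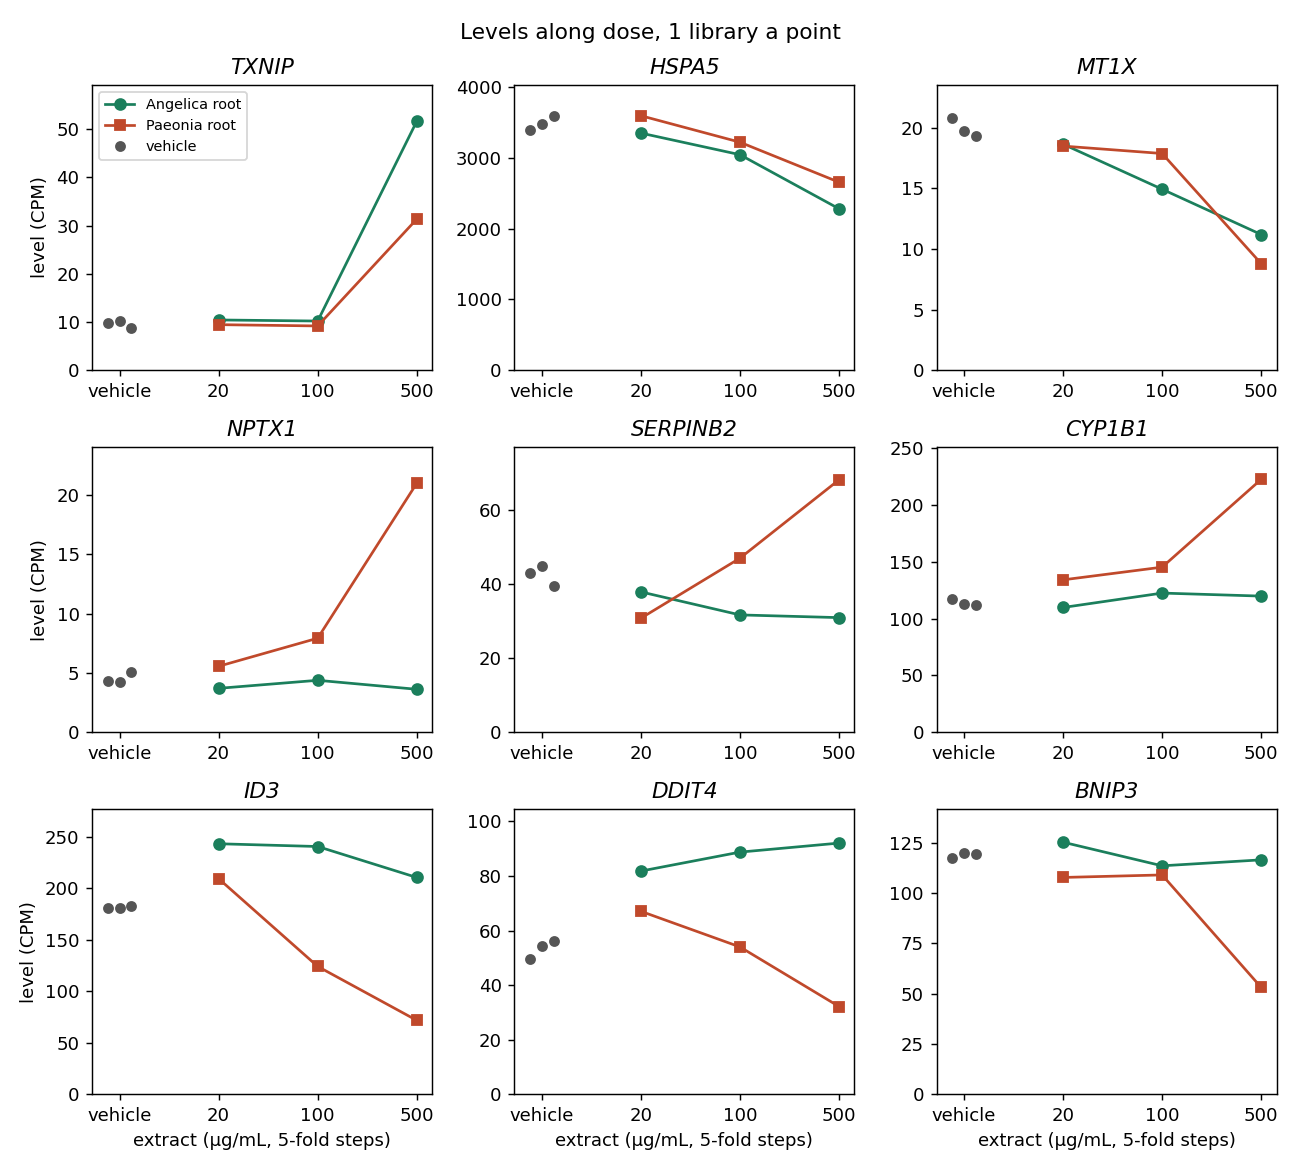
Levels (CPM, from 0) of 9 genes in cells given Angelica or Paeonia root at 20, 100 and 500 µg/mL, 1 library a point, with the 3 vehicle libraries at the left of each panel. TXNIP was at 51.6 CPM (Angelica) and 31.3 CPM (Paeonia) at 500 µg/mL and near vehicle below it, HSPA5 and MT1X ran down in both roots, and the other 6 genes moved along Paeonia.

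Along the dose of Paeonia root, 28 genes rose (0.154% of those tested) and 29 fell (0.16%), 57 in all (0.314%). An unadjusted p under 0.05 was reached by 873 genes. Of the 57, 54 had their 3 doses in order, and in all 57 the library at 500 µg/mL lay beyond the 3 vehicle libraries on the side of the slope. The slopes were fitted to the same Paeonia libraries, so these counts describe the calls and are no separate support for them. No share over all genes is given for either count. At 20 µg/mL, 19 of the 57 lay within the vehicle range and 24 lay beyond it on the opposite side; the root and vehicle libraries also differ in set code. The calls lean on the end of the series: without the high Paeonia library edgeR called no gene (345 at an unadjusted p under 0.05). Without the low one 18 were called, 15 of them among the 57. Leaving out the Sagunja library that stands apart gave 177 calls (0.974%), with all 57 among them.

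The genes that rose most included secreted and surface proteins. NPTX1 (ENSG00000171246, chr17:80467148-80477843), a pentraxin that organises synapses in neurons, had 5.55, 7.92 and 21 CPM along Paeonia, against 4.32, 4.24 and 5.05 CPM in vehicle, and its slope was 0.98 ± 0.12 (adjusted p = 1.7e-06). All 3 Paeonia libraries lay above vehicle, though the low one lay within the low-dose libraries of 5 other extracts (3.30 to 5.94 CPM). IGFBP1, which binds insulin-like growth factors, had 16.3, 23.8 and 51.7 CPM, against 21.8, 21.9 and 17.8 CPM in vehicle (slope 0.84 ± 0.10, adjusted p = 6.2e-07). Its low dose lay below vehicle but within those low-dose libraries (16.3 to 25.8 CPM). VIPR1, a receptor of vasoactive intestinal peptide, had 3.70, 6.31 and 10.5 CPM, against 3.06 ± 0.292 CPM in vehicle (slope 0.75 ± 0.10, adjusted p = 7.1e-06). The low-dose libraries of the 5 other extracts had 3.85 to 5.18 CPM of VIPR1, all above vehicle. Thrombomodulin (THBD), a brake on clotting, had 8.07, 9.34 and 19.6 CPM, against 7.94 ± 0.349 CPM in vehicle (slope 0.65 ± 0.08, adjusted p = 1.8e-06). Its change lay mostly in the last step. SECTM1, a secreted and transmembrane protein, likewise had 3.11, 3.19 and 7.24 CPM (slope 0.63 ± 0.13, adjusted p = 0.0075). The hyaluronan synthase HAS3 had 44.2, 62.3 and 91.1 CPM (slope 0.52 ± 0.10, adjusted p = 0.0053).

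Of 27 targets of NF-kB tested, 3 rose along Paeonia (0.154% of all genes rose) and none fell, with a median slope of 0.135 (all genes, -0.001). Along Angelica none was called and the median was 0.0167. With the Sagunja library left out, 5 rose along Paeonia and 1 along Angelica, and none fell. The shares of all genes called were then 0.974% and 0.0936%. The 3 called along Paeonia with that library kept were CXCL8, the attractant of neutrophils, and the cytokines LIF and IL1B. CXCL8 had 5.52, 8.0 and 13.7 CPM along Paeonia, against 12, 11.9 and 9.05 CPM in vehicle (slope 0.66 ± 0.12, adjusted p = 0.0013). Its low and medium doses lay below all vehicle libraries and its high dose above them. LIF also had its low dose below vehicle, with 33.1, 54.6 and 78.5 CPM, against 55.8, 57.6 and 51.1 CPM in vehicle (slope 0.62 ± 0.11, adjusted p = 0.0011). Those low-dose libraries of other extracts had 26.8 to 40.6 CPM of LIF, again all below vehicle. IL1B had 5.07, 6.10 and 10.6 CPM, against 5.12, 4.44 and 4.81 CPM in vehicle (slope 0.54 ± 0.09, adjusted p = 0.00081). Against vehicle at 500 µg/mL, the log2 change was 1.15 ± 0.15 for IL1B (adjusted p = 1.4e-06). It was 0.32 ± 0.17 for CXCL8 (adjusted p = 0.53) and 0.52 ± 0.17 for LIF (adjusted p = 0.15). The NF-kB inhibitors NFKBIA and TNFAIP3, themselves standard targets, had Paeonia slopes of 0.03 and 0.02 and were not called.

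Of 14 targets of AHR, all 14 had a slope above 0 along Paeonia, 3 were called as higher and none as lower, and the median slope was 0.356. Over all genes tested, 49.2% had a slope above 0 along Paeonia and 0.154% were called as higher. Along Angelica 9 of 14 were above 0 (48.8% of all genes), none was called, and the median was 0.0672. CYP1B1, an AHR-induced oxygenase of steroids and plant compounds, had 134, 145 and 223 CPM along Paeonia, against 117, 113 and 112 CPM in vehicle (slope 0.37 ± 0.07, adjusted p = 0.0026). ALDH1A3, which makes retinoic acid, had 713, 860 and 1200 CPM, against 688 ± 6.29 CPM in vehicle (slope 0.37 ± 0.08, adjusted p = 0.021). SERPINB2, an inhibitor of plasminogen activators, had 30.8, 47.0 and 68.2 CPM, against 43.1, 45.0 and 39.6 CPM in vehicle (slope 0.57 ± 0.06, adjusted p = 1.3e-08). CYP1A1, the gene most often used to read AHR, had 1.07, 0.970 and 3.09 CPM along Paeonia, against 0.764, 0.880 and 1.13 CPM in vehicle (slope 0.81 ± 0.20, adjusted p = 0.058). Only the high dose stood apart. Without the Sagunja library that stands apart, 9 of the 14 were called, as were 0.974% of all genes. ABCG2, a drug exporter on the list of xenobiotic transport, also rose along Paeonia (31.7, 39.4 and 51.6 CPM, against 32.7, 31.5 and 31.6 CPM in vehicle; slope 0.35 ± 0.07, adjusted p = 0.0072). Of 25 targets of NRF2, the sensor of electrophiles, none was called along either root (median slope 0.0556 for Angelica and 0.0932 for Paeonia), and HMOX1 had Paeonia slope -0.07 ± 0.07. The slope of 22 of the 25 was above 0 along Paeonia. When the Sagunja library was left out, 5 were called higher along Paeonia and 1 lower along Angelica, where 0.0936% of all genes were called. Against vehicle 4 were called higher in Paeonia at 500 µg/mL (0.946% of all genes) and none in Angelica (0.132%).

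Among the genes that fell along Paeonia were all 4 members of the ID family, inhibitors of helix-loop-helix factors that bone morphogenetic protein (BMP) signals are known to raise; the family was put together after the values were seen. ID3 (ENSG00000117318, chr1:23557918-23559794) had 209, 124 and 71.7 CPM along Paeonia, against 181, 181 and 182 CPM in vehicle (slope -0.77 ± 0.07, adjusted p = 5.0e-09). The low dose lay above vehicle and the other doses below it. ID2 had 21.2, 12.5 and 8.78 CPM, against 23.3 ± 1.79 CPM in vehicle (slope -0.64 ± 0.09, adjusted p = 1.8e-05). ID1 had 273, 190 and 141 CPM, against 238 ± 3.19 CPM in vehicle (slope -0.47 ± 0.11, adjusted p = 0.029). ID4 had 2.93, 1.94 and 0.882 CPM, against 2.84 ± 0.402 CPM in vehicle (slope -0.83 ± 0.13, adjusted p = 0.00016). SMAD6, which inhibits BMP signals and is itself raised by them, fell too (13.0, 10.4 and 6.95 CPM, against 13.0 ± 0.481 CPM in vehicle; slope -0.45 ± 0.09, adjusted p = 0.0055). The helix-loop-helix factor ATOH8 fell as well (20.2, 11.9 and 10 CPM, against 20.7 ± 0.741 CPM in vehicle; slope -0.51 ± 0.10, adjusted p = 0.0067). GREM1, a secreted BMP antagonist, rose (14.4, 22.4 and 29.3 CPM, against 18.8 ± 0.534 CPM in vehicle; slope 0.51 ± 0.08, adjusted p = 0.00013). SMAD7, a relative of SMAD6, was not called (slope -0.15 ± 0.07, adjusted p = 1).

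Of 23 targets of the hypoxia-inducible factors, 4 fell along Paeonia and none rose, with 20 of 23 slopes below 0 and a median of -0.170. Over all genes tested, 0.16% were called lower along Paeonia and 49.2% had a slope above 0. Along Angelica none was called and the median was -0.0001. Along Paeonia 10 fell and 1 rose, VEGFA, without the Sagunja library, and none was called along Angelica. Without that library 0.974% of all genes were called along Paeonia and 0.0936% along Angelica. BNIP3, a mitochondrial receptor for autophagy, had 108, 109 and 53.1 CPM along Paeonia, against 118, 120 and 119 CPM in vehicle (slope -0.51 ± 0.07, adjusted p = 1.6e-05). Only its high dose stood apart. Its relative BNIP3L (119, 116 and 79.4 CPM; slope -0.29 ± 0.05, adjusted p = 0.0026) and NDRG1 (43.6, 44.3 and 29.7 CPM; slope -0.27 ± 0.06, adjusted p = 0.037) had the same shape. DDIT4, an inhibitor of mTORC1, had 67.1, 54.0 and 32.2 CPM, against 49.4, 54.2 and 56.1 CPM in vehicle (slope -0.53 ± 0.08, adjusted p = 9.3e-05). VEGFA, the best-known target, was not called with that library kept (368, 403 and 444 CPM; slope 0.14 ± 0.08, adjusted p = 1). Of 17 glycolysis enzymes, 16 had a slope below 0 along Paeonia and none was called (median -0.107). Of these 3 were called lower without the Sagunja library. FBXL5, which senses iron and oxygen and marks an iron regulator for degradation, rose in the last step (37.7, 39.2 and 69.6 CPM along Paeonia, against 36.3 ± 0.587 CPM in vehicle; slope 0.45 ± 0.07, adjusted p = 4.1e-05). It was the only called member of 11 tested genes of iron balance, of which 2 were called without the Sagunja library.

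The largest fall along Paeonia among called genes that reached 5 CPM was that of UCA1, a long non-coding RNA, with 5.18, 3.52 and 1.1 CPM, against 5.62 ± 0.576 CPM in vehicle (slope -1.03 ± 0.17, adjusted p = 0.00042). SAMD11 had 79.3, 50.4 and 31.1 CPM, against 80.0 ± 2.46 CPM in vehicle (slope -0.68 ± 0.09, adjusted p = 1.5e-05). The muscle and YAP target ANKRD1 had 13.3, 11.2 and 5.59 CPM, against 13.3, 13.2 and 13.3 CPM in vehicle (slope -0.61 ± 0.14, adjusted p = 0.038). Calls of KRTAP2-3, the metallothioneins and the small nucleolar RNA SNORD3B-2 are uncertain, since near-identical copies share their reads; SNORD3B-2 had 0.111, 0.364 and 1.73 CPM along Paeonia.

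With both roots taken as parallel series, 31 genes rose along dose (0.171% of those tested) and 22 fell (0.121%), 53 in all (0.292%). Without the Sagunja library 197 were called (1.08%). This slope rests on 2 libraries per dose, and a call does not show that a gene moved with both roots: NPTX1 (shared adjusted p = 0.0092) and THBD (shared adjusted p = 0.010) were called with Angelica slopes of -0.015 and 0.027. Of 18 genes of the unfolded protein response, 5 fell and none rose, all 18 shared slopes were below 0, and the median was -0.126, against a median of 0.0 over all genes. Of the 18, 11 fell without the Sagunja library. The 5 were HSPA5 (shared slope -0.25 ± 0.03, adjusted p = 2.2e-05), HERPUD1 (-0.22 ± 0.03, adjusted p = 0.00032) and 3 others. These were the chaperone HSP90B1 (-0.16 ± 0.03, adjusted p = 0.0013), the disulfide isomerase PDIA6 (-0.13 ± 0.03, adjusted p = 0.013) and the co-chaperone DNAJB11 (-0.12 ± 0.03, adjusted p = 0.038). HSP90B1 had 1480, 1365 and 1208 CPM along Angelica and 1586, 1422 and 1251 CPM along Paeonia, against 1465 ± 24.8 CPM in vehicle. The cytosolic heat shock genes, 14 in all, had no call and a median of -0.0047.

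Of 6 genes of metallothioneins and zinc transport, MT1E and MT1X fell by the shared slope (0.121% of all genes fell) and none rose. MT1X had 18.6, 14.9 and 11.2 CPM along Angelica and 18.5, 17.9 and 8.78 CPM along Paeonia, against 20.8, 19.7 and 19.3 CPM in vehicle (shared slope -0.44 ± 0.07, adjusted p = 0.00016). All 6 root libraries lay below the 3 vehicle libraries. MT1E had 22.0, 16.6 and 10.7 CPM along Angelica and 23.6, 22.4 and 8.89 CPM along Paeonia, against 24.0 ± 2.14 CPM in vehicle (shared slope -0.59 ± 0.08, adjusted p = 5.5e-05). MT2A had 404, 350 and 290 CPM along Angelica and 381, 432 and 254 CPM along Paeonia, against 486 ± 44.4 CPM in vehicle, and its shared slope was not called (-0.26 ± 0.08, adjusted p = 0.17). Shared rises were called for DIO2, which activates thyroid hormone (0.33 ± 0.06, adjusted p = 0.00086). They were also called for the immediate early factor EGR1 (0.32 ± 0.07, adjusted p = 0.023), IL6 (0.29 ± 0.07, adjusted p = 0.023) and the growth factor HGF (0.25 ± 0.05, adjusted p = 0.0069). DIO2 had 40.7, 46.0 and 61.7 CPM along Angelica and 41.9, 51.3 and 68.7 CPM along Paeonia, against 43.3 ± 0.669 CPM in vehicle. Without the high Paeonia library 5 genes had a called shared slope, and without the low Paeonia library 8. Leaving out any 1 Angelica library or the medium Paeonia library gave 40 to 58.

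**Figure D2:**
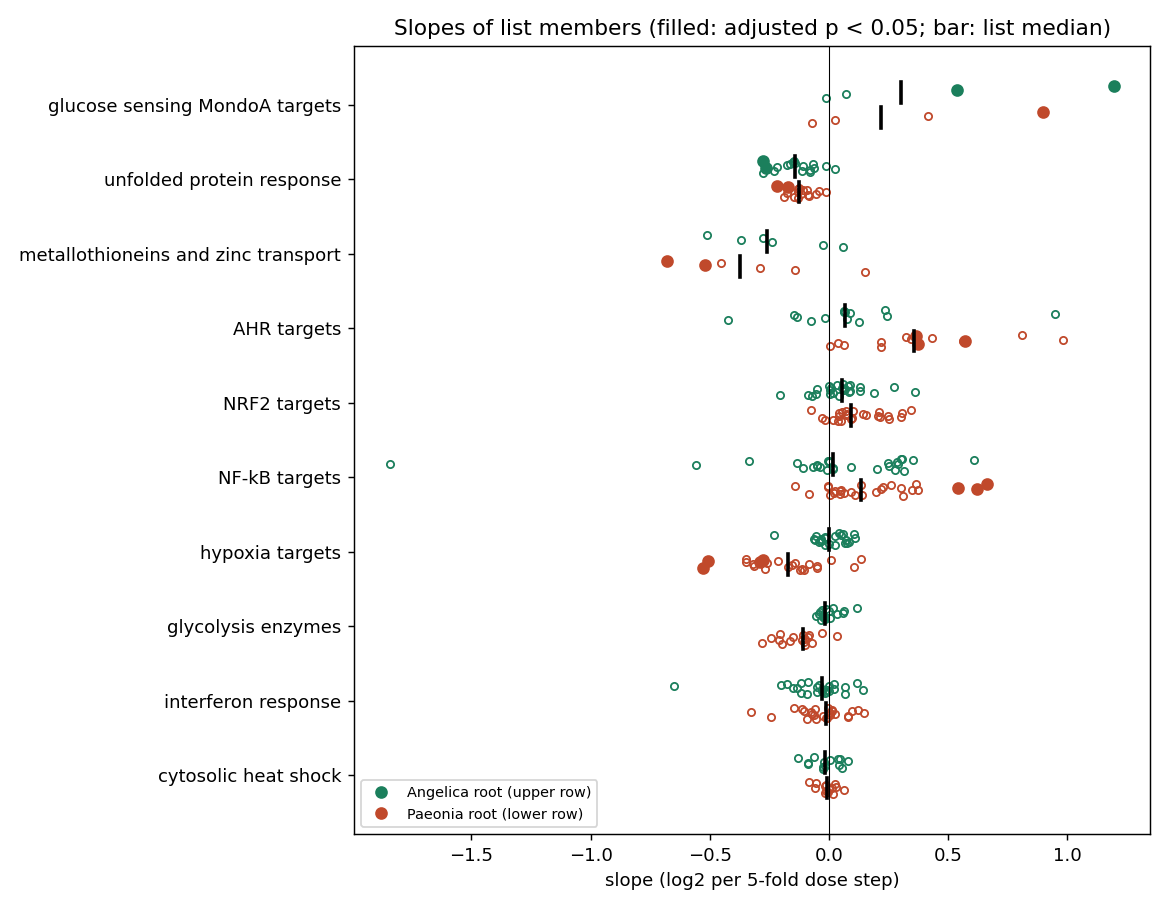
Slopes (log2 change per 5-fold dose step) of the tested members of 10 gene lists, along Angelica in the upper row of each pair and along Paeonia in the lower, with filled points for genes called at an adjusted p under 0.05 and a bar at the median. The unfolded protein response has its median left of 0 in both rows, and the AHR and hypoxia targets spread from 0 in the Paeonia row, with medians of 0.356 and -0.170.

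The slopes of the roots differed for 10 genes (0.055% of those tested), 4 with the higher slope in Angelica (0.022%) and 6 with the lower (0.033%), and 31 were called without the Sagunja library (0.171%). Of the 57 genes called along Paeonia, 44 had a slope of the same sign along Angelica, 2 were called along both roots (TXNIP and HSPA5), and these 10 differed. The share of all genes with the same sign in both roots is not given. SERPINB2 had 37.9, 31.7 and 31.0 CPM along Angelica and 30.8, 47.0 and 68.2 CPM along Paeonia (difference of slopes -0.72 ± 0.08, adjusted p = 8.0e-07). The slope was -0.15 ± 0.06 along Angelica and 0.57 ± 0.06 along Paeonia. DDIT4 had 81.8, 88.7 and 92.0 CPM along Angelica and 67.1, 54.0 and 32.2 CPM along Paeonia (difference of slopes 0.61 ± 0.11, adjusted p = 0.0099). All 3 Angelica libraries lay above the vehicle libraries in DDIT4, and the high Paeonia library lay below them. ID3 had 243, 240 and 210 CPM along Angelica, with a slope of -0.10 ± 0.07 (difference 0.67 ± 0.10, adjusted p = 0.00085). NPTX1 stayed between 3.62 and 4.37 CPM along Angelica (difference -1.0 ± 0.19, adjusted p = 0.017). THBD stayed between 7.23 and 7.72 CPM (difference -0.63 ± 0.12, adjusted p = 0.017). FBXO32, a ubiquitin ligase of muscle wasting, had 91.2, 95.4 and 78.3 CPM along Angelica and 96.8, 122 and 134 CPM along Paeonia, against 100.2 ± 5.67 CPM in vehicle (difference -0.35 ± 0.06, adjusted p = 0.0099). IGFBP1, BNIP3, the secreted glycoprotein STC2 and KCTD16, a partner of the GABA-B receptor, completed the 10, with adjusted p between 0.027 and 0.043. None of these 4 was called when libraries were scaled by size alone, and 3 of the 10 were called with only the 6 root libraries in the fit. Without the high or the low Angelica library 2 genes were called, and without the high Paeonia library 1 was, in each case with 1 of the 10 among them.

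**Figure D3:**
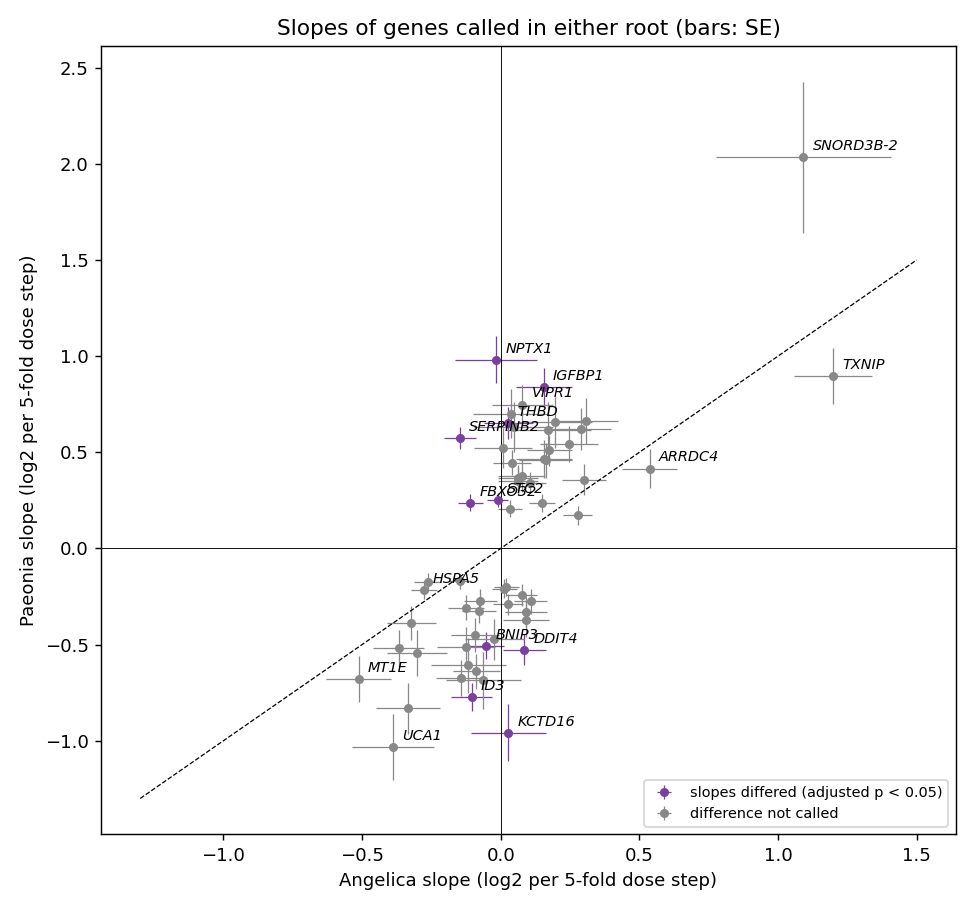
Slope along Angelica (horizontal) against slope along Paeonia (vertical), both in log2 per 5-fold dose step, for the genes called along either root, with SE bars, a dashed line of equal slopes, and purple for the 10 genes whose slopes differed. Most points lie near 0 on the Angelica axis, whereas TXNIP (1.20 and 0.90) and HSPA5 (-0.28 and -0.22) lie near the line.

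At matched doses, with 3 pairs of libraries from the same set, the mean level differed between the roots for 24 genes (0.132% of those tested): 14 were higher in Angelica (0.077%) and 10 lower (0.055%). Without the Sagunja library 97 were called (0.534%). All 4 ID genes were higher in Angelica over the 3 doses. The log2 differences were 0.93 ± 0.12 for ID2 (adjusted p = 2.6e-05) and 0.90 ± 0.12 for ID3 (adjusted p = 2.6e-05). They were 0.74 ± 0.15 for ID4 (adjusted p = 0.016) and 0.69 ± 0.14 for ID1 (adjusted p = 0.013). ID1 had 327, 299 and 316 CPM in Angelica and 273, 190 and 141 CPM in Paeonia, against 237, 236 and 242 CPM in vehicle. Angelica lay above vehicle at every dose, and Paeonia lay above it at the low dose and below it at the others. BDKRB1, the inducible bradykinin receptor, had 34.5, 29.3 and 28.7 CPM in Angelica and 23.8, 24.6 and 18.2 CPM in Paeonia, against 33.8 ± 0.345 CPM in vehicle (log2 difference 0.48 ± 0.08, adjusted p = 0.00029). NPTX1 (-1.38 ± 0.20, adjusted p = 0.00011), VIPR1 (-0.90 ± 0.15, adjusted p = 0.00057), IL1B (-0.72 ± 0.12, adjusted p = 0.00068) and CYP1B1 (-0.48 ± 0.09, adjusted p = 0.0062) were lower in Angelica. The calls rested on the high dose: without either high library edgeR called no gene (536 at an unadjusted p under 0.05). Without either low library 45 or 46 were called. With only the 6 root libraries in the fit 50 genes were called, of which 3 were among the 24.

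Against vehicle, the library at 500 µg/mL of Angelica had 24 genes higher (0.132% of those tested) and 15 lower (0.0825%), 39 in all (0.215%). That of Paeonia had 172 higher (0.946%) and 137 lower (0.754%), 309 in all (1.7%). Without the Sagunja library 267 were called for Angelica (1.47%) and 1107 for Paeonia (6.09%). Both comparisons share the 3 vehicle libraries, whose set differs from that of the roots, so set and extract cannot be told apart. No DMSO content is recorded for the root libraries, so a difference in solvent cannot be told apart from extract either. Among called genes that reached 5 CPM, the largest changes in Angelica were in TXNIP (log2 change 2.43 ± 0.13, adjusted p = 8.7e-18), SERPINB3, a protease inhibitor (5.74 CPM, against 2.69 ± 0.473 CPM in vehicle; 1.09 ± 0.17, adjusted p = 0.00031), and ARRDC4 (0.91 ± 0.14, adjusted p = 0.00038) upward. Downward they were in MT1E (-1.16 ± 0.18, adjusted p = 0.00024), MT1X (-0.83 ± 0.14, adjusted p = 0.0012) and HERPUD1 (-0.82 ± 0.08, adjusted p = 1.7e-08). SERPINB3 was above all vehicle libraries at 20 and 100 µg/mL already (3.88 and 3.40 CPM of Angelica, against 2.22 to 3.16 CPM in vehicle), and its slope was not called. With the low-dose libraries of 5 extracts in place of vehicle, at 3.00 to 5.55 CPM, its call was lost (adjusted p = 0.705). IFIT3, an interferon-induced gene, had 20.1, 18.9 and 17 CPM along Angelica, against 26.4 ± 2.52 CPM in vehicle (-0.63 ± 0.11, adjusted p = 0.0029). Its call was likewise lost against those low-dose libraries (adjusted p = 0.191). In Paeonia, under the same limit, NPTX1 (2.21 ± 0.18, adjusted p = 2.3e-11), VIPR1 (1.77 ± 0.16, adjusted p = 1.8e-10) and TXNIP (1.71 ± 0.13, adjusted p = 3.3e-12) were highest over vehicle. UCA1 (-2.34 ± 0.30, adjusted p = 1.1e-06), MT1E (-1.43 ± 0.18, adjusted p = 1.0e-06) and ID2 (-1.41 ± 0.16, adjusted p = 1.2e-07) were lowest. Of the AHR targets 8 of 14 were called higher in Paeonia than in vehicle and none lower (median log2 change 0.714). In Angelica none was called higher and 2 lower (median -0.0512). Of the hypoxia targets 9 of 23 were called lower in Paeonia than in vehicle and none higher (median -0.374). In Angelica none of the hypoxia targets was called (median 0.0738). With the low-dose libraries of 5 extracts in place of vehicle, 14 genes were called for Angelica (7 of them among the 39) and 210 for Paeonia.

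Angelica and Paeonia are, with Cnidium and Rehmannia, the herbs of Samul-tang. No library of the formula or of another herb enters the slope estimates of the roots, though all supply the spread. Slopes of the other extracts came from the same spread, as the log2 change from low to high dose per 5-fold step. Their medium dose did not enter these estimates, whereas a line through 3 doses was fitted for each root. Of the 57 genes called along Paeonia, 56 had a slope of the same sign along Samul-tang, and 44 were called there in that direction and none in the other, where 0.71% of all genes tested were called. Along Rehmannia all 57 had the same sign and 38 were called alike (0.787% of all genes called). Along Cnidium 42 had the same sign and 10 were called alike (0.198%). The share of all genes with the same sign is not given, so the counts by sign have no background. Outside Samul-tang, 8 were called alike and 11 in the opposite direction along Astragalus (0.259%), 36 and 10 along Cinnamon (21.1%), and 30 and 5 along Sagunja (20.4%). The Sagunja slope includes the low-dose library that stands apart, and no Sagunja slope was fitted without it. The pair of high and low Sagunja libraries that holds it was at least 2-fold apart in 2744 genes, the other pairs in 88 and 79. Of the 5 genes called along Angelica, all 5 had the same sign along Samul-tang and 3 were called there. TXNIP had slopes of 0.69 along Samul-tang (adjusted p = 0.00011) and 0.52 along Rehmannia (adjusted p = 0.00053), and NPTX1 of 0.74 and 0.70. FBXL5, which rose along Paeonia, had slopes of 0.12 along Samul-tang (adjusted p = 0.46) and 0.07 along Rehmannia (adjusted p = 0.69).

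**Figure D4:**
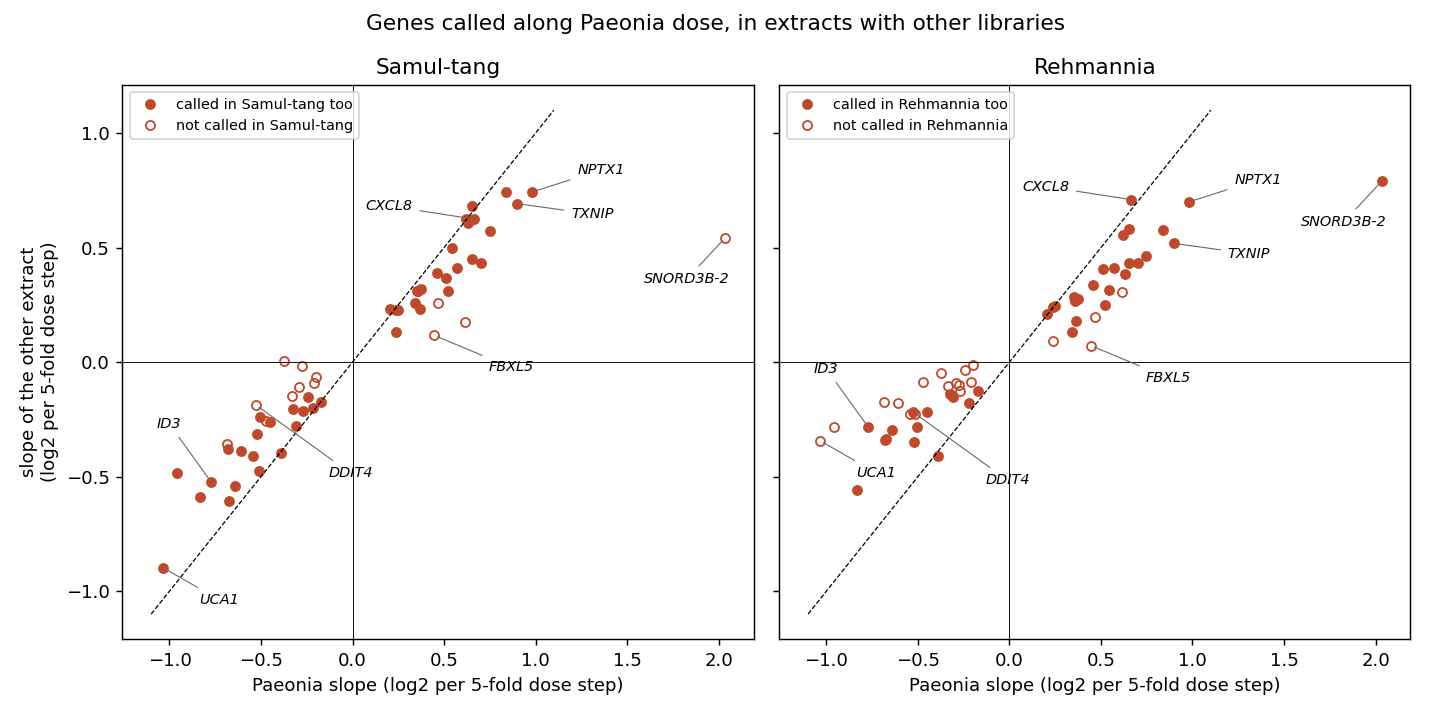
Slope along Paeonia (horizontal) of the 57 genes called there against their slope along Samul-tang (left) and Rehmannia (right), in log2 per 5-fold dose step, with filled points for genes called in the other extract and a dashed line of equal slopes. In both panels nearly all points share the sign, 56 of 57 in Samul-tang and 57 in Rehmannia, with NPTX1 at 0.98 along Paeonia and 0.74 and 0.70 along the others.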

How the data were processed

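Per the labels, mRNA of SW1783 cells was sequenced. The submitters' processing notes name RSEM 1.3.3 and STAR 2.7.3a, besides Trim Galore 0.6.5 and FastQC 0.11.9, with GRCh38; the annotation release was not given in the sources used here. As deposited by the authors, values are RSEM expected counts per gene (60675 genes), of which 90.67% were whole, and all were rounded. Of 279 columns, 219 were not used here. Symbols and positions were matched for 56558 and 57055 genes (positions from GENCODE release 29).

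Genes were filtered with filterByExpr (18181 left), scaled by TMM and fitted over all 60 libraries with edgeR 4.0.16 (quasi-likelihood, robust; R 4.3.3), with a coefficient for each of 19 other groups and a level and a slope for each root (37 residual degrees of freedom). The root libraries, 1 per dose, are assumed to vary like the other groups. CPM uses TMM-scaled library sizes. Benjamini-Hochberg adjustment ran over all genes of each comparison. Tests were tried on simulated data. DESeq2 1.42.0, other scalings, no filter and left-out libraries were alternatives. Genes were named by size among those called, in dose order and at 5 CPM or more; others named were members of lists or were chosen after their values were seen. The comparisons, the 38 gene lists and the members were chosen with earlier results of these data known. Depth limits the precision of genes of a few CPM.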

Additional observations from a re-analysis of the deposited data

Results flagged for a closer look

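The slope along dose differed between the roots, by the test of the difference itself (edgeR, adjusted p under 0.05), for 10 genes. The slope of Angelica minus that of Paeonia was 0.67 for ID3, 0.61 for DDIT4 and 0.45 for BNIP3. It was -1.0 for NPTX1, -0.72 for SERPINB2, -0.68 for IGFBP1, -0.63 for THBD, -0.35 for FBXO32 and -0.26 for STC2. The other gene, KCTD16, did not reach 5 CPM and had a difference of 0.99. All values are log2 change per 5-fold dose step, from 3 libraries for each root.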

How the results depend on the processing

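Counts of called genes moved by more than 1.5 times with the library that stands apart, the filter and the test. Without Sagunja low library 1, the calls were 17 for the Angelica slope, 177 for the Paeonia slope, 197 for the shared slope, 31 for the difference of slopes, 97 for Angelica against Paeonia, 267 for Angelica against vehicle and 1107 for Paeonia against vehicle, and each set held all genes called with it. With that library left out and the replicate number as a block in the set, an alternative chosen after seeing the data, the first 5 of these were 50, 269, 364, 50 and 164. Without the filter on low counts, they were 55, 125, 129, 58 and 117, with 179 for Paeonia against vehicle. DESeq2 gave 11 for the Angelica slope, 94 for the shared slope, 17 for the difference, 43 for Angelica against Paeonia and 96 for Angelica against vehicle. Scaling by library size alone gave 6 for the difference and 66 (55 higher, 11 lower) for Angelica against vehicle; for Paeonia against vehicle it gave 342 higher and 94 lower. With low doses of 5 extracts as the comparison Angelica had 14 calls, without SERPINB3 and IFIT3. With only the 6 root libraries the Angelica slope had 4 calls (none of the 5) and the Paeonia slope 63 (31 of the 57). The shared slope had 51 (13 of the 53), the difference 14 (3 of the 10) and Angelica against Paeonia 50 (3 of the 24). These fits had 2 residual degrees of freedom, except that of the shared slope, which had more. The cause of these moves was not tested.

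With each root library removed in turn, there were 1 to 5 calls for the Angelica slope, 0 to 62 for the Paeonia slope, 5 to 58 for the shared slope, 1 to 12 for the difference and 0 to 46 for Angelica against Paeonia. Leaving out a vehicle library gave 27 to 31 for Angelica and 229 to 230 for Paeonia at high dose. The sign turned for TXNIP along Angelica without the high Angelica library (slopes of -0.031 to 2.34 with 1 library removed) and for the BNIP3 difference without the high Paeonia library (-0.069 to 0.986).

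The 6 root libraries share 1 replicate number, so it pairs no 2 of them with a block of their own. A fit with the replicate block over the whole series gave 5 calls for the Angelica slope, 68 for the Paeonia slope, 7 for the difference of slopes (BNIP3, IGFBP1 and KCTD16 were lost) and 62 for Angelica against vehicle.

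The number of genes 2-fold apart between 2 libraries depended on the pseudocount: with 0.5 CPM in place of 1 it was 75 for Angelica high over low and 95 for Paeonia, and with 5 CPM it was 4 and 11.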
